A study of Mus musculus with 5 samples.

Results

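Protein kinase A (PKA) was followed through 10 genes taken by name from the deposited expression table, out of 21667 genes in all. They were the catalytic subunit genes Prkaca and Prkacb, the regulatory subunit genes Prkar1a, Prkar1b, Prkar2a and Prkar2b, the anchor genes Akap1, Akap12 and Akap13, and Rapgef3, which encodes the cAMP sensor Epac1. RNA had been sequenced from the whole dorsal epidermis of wildtype C57BL/6 male mice, aged 7 weeks (postnatal day 49), whose backs were shaved. The groups were 10 µM forskolin (2 libraries), 1.325 mM cAMP (2 libraries) and a control labelled untreated (1 library). The compounds were carried in DMSO and PLO lotion and put on the skin 3 times within 5 days. The series asks how Creb, a transcription factor that PKA phosphorylates, can hasten the hair cycle. Whether the control mouse received the lotion, and whether each library is a separate animal, is not stated in the labels. The p-values below therefore measure the spread between libraries, which may be technical, and the single control was assumed to vary as the treated libraries did.

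Without cAMP, a pair of regulatory subunits holds a pair of catalytic subunits inactive. When cAMP binds the regulatory subunits, the catalytic subunits are released and phosphorylate targets that include Creb. A-kinase anchoring proteins hold the regulatory subunits at particular sites in the cell. Epac1 is a separate cAMP receptor that activates the small GTPases of the Rap family. Forskolin raises cAMP inside cells by activating adenylyl cyclase, whereas the other treatment supplied cAMP itself.

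Sequence around the start sites is shown for 3 of the genes, because the cAMP response element (CRE), the motif bound by Creb, can be looked for there. The full element was searched as TGACGTCA, which reads the same on both strands, and its core as TGACG on both strands, so that CGTCA is the core on the other strand and a full element contains 2 overlapping cores. RefSeq windows running from 250 bases before to 50 bases after a start (build GRCm38.p6) were at hand for 9 of the 10 genes, 24 windows in all. The 4 windows below are written 5′ to 3′ on the strand of the gene, with cores and full elements in capitals.
Prkar1a, chr11:109650699-109650998, plus strand: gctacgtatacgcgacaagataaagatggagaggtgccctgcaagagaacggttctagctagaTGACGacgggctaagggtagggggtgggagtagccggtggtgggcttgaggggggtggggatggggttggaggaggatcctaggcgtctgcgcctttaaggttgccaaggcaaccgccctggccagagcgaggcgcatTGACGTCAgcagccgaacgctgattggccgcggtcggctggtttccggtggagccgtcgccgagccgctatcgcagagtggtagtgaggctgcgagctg
Prkar1a, chr11:109649113-109649412, plus strand: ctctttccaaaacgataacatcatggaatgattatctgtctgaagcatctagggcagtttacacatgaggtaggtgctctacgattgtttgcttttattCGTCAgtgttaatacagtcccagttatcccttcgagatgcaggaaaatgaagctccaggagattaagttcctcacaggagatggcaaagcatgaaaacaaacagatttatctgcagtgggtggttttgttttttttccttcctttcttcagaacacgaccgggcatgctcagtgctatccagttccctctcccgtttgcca
Prkaca, chr8:83972728-83973027, plus strand: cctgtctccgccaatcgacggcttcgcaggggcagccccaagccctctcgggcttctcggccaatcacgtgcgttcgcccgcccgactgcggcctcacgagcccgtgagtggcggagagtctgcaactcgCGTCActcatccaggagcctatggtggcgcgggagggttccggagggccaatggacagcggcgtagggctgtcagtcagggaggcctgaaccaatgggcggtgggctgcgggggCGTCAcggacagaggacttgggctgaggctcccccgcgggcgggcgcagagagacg
Prkar2a, chr9:108691893-108692192, plus strand: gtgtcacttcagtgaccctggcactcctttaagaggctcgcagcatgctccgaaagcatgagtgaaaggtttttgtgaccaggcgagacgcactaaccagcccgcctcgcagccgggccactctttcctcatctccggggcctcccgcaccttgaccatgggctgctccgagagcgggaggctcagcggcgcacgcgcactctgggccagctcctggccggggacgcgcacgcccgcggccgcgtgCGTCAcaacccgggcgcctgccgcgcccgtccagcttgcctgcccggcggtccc
The first Prkar1a window holds the full element, its first base at position -49 from the RefSeq start, and a further core at -187. The deposited transcript Prkar1a-001 starts inside that window. The second Prkar1a window, in which transcript Prkar1a-002 starts, holds a core at -151 and no full element. The Prkaca window holds cores at -120 and -6, and the Prkar2a window holds one at -4. Over the 24 windows, 8 windows of 6 genes held a core, and 2 overlapping windows, both of Prkar1a, held the full element. Among all 32851 RefSeq promoter windows, 20.8% held a core and 1.79% the full element. These matches describe letters in a window and say nothing of whether Creb was bound.

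Levels are given in CPM as deposited, which are reads divided by the size of the library and not by transcript length. The control library stood apart from the 4 treated ones. Mitochondrially encoded transcripts made up 43.2% to 58.1% of the listed CPM in the treated libraries, against 69.3% in the control. Nuclear genes other than pseudogenes and ribosomal RNA made up 26.0% to 38.0% in the treated libraries, against 7.90% in the control. The number of genes at 1 CPM or more was 12867 to 13551 in the treated libraries, against 9791 in the control. The 7 basal keratinocyte markers, all listed and above 3 reads in every library, summed to 2531 to 5946 CPM in the treated libraries and 1302 CPM in the control. A gene whose share of the nuclear transcripts was the same in all libraries would therefore look higher in the treated ones. For that reason each comparison with the control is given both as deposited and after median-of-ratios scaling, which sets the typical gene equal between libraries. Estimated depth was 34200000 to 51700000 reads, so 3 reads came to 0.0581 to 0.0878 CPM, and this floor covers counting error only. In whole tissue, fewer cells of a type and less RNA per cell cannot be told apart.

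As deposited, 7 of the 9 genes with enough signal to test were higher after forskolin than in the control, and the same number after cAMP. They were both catalytic subunit genes, Prkar1a, Prkar2a, Prkar2b, Akap1 and Akap13 in each comparison, whereas Akap12 and Rapgef3 did not pass (limma, Benjamini-Hochberg adjusted over all 13764 tested genes, threshold 0.05). That share is to be read against a background in which 66.3% of all tested genes were higher and 0.341% lower after forskolin, and 65.1% higher and 0.436% lower after cAMP. The median log2 change of the 9 genes was 2.11 for forskolin, beside 1.69 for all tested genes, and 2.28 for cAMP, beside 1.66. After median-of-ratios scaling the median of all tested genes was 0.18 and 0.15, and that of the 9 genes was 0.45 for forskolin and 0.29 for cAMP. On that scale none of the 9 passed after forskolin, where 15.1% of all genes were higher and 6.73% lower by limma, although 3 (Prkar2b, Akap12 and Akap13) had an unadjusted p under 0.05. After cAMP, Prkar2b was higher and Akap12 was lower, where 15.7% of all genes were higher and 7.03% lower. Without forskolin replicate 2 the number called after forskolin as deposited was 4 in place of 7. After scaling, leaving out forskolin replicate 1 made it 1 for forskolin, and for cAMP leaving out forskolin replicate 1 or cAMP replicate 2 made it 1 in place of 2. Without forskolin replicate 2, fewer of all tested genes were called after forskolin as deposited as well. After scaling, fewer of all tested genes were called for forskolin without forskolin replicate 1. For cAMP on that scale, more were called without forskolin replicate 1 and fewer without cAMP replicate 2. Both comparisons share the same control library.

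**Figure D1:**
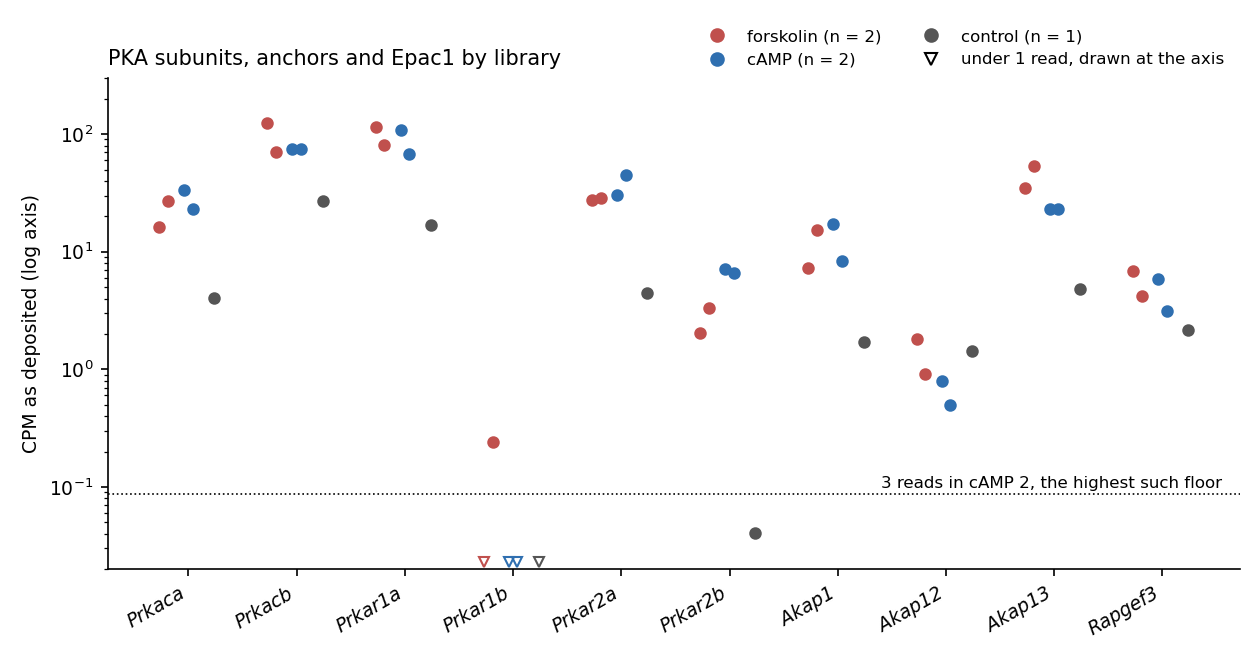
CPM as deposited (log axis) of the 10 genes in each forskolin library (n = 2), cAMP library (n = 2) and the control library (n = 1), 1 point per library. Prkar2b has its 4 treated libraries between 2.02 and 7.20 CPM and the control at 0.0405 CPM, Akap12 has the control among the treated libraries, and open triangles mark libraries of Prkar1b with under 1 read.

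Prkaca and Prkacb encode the catalytic subunits Cα and Cβ, which carry out the phosphorylation. Prkaca (ENSMUSG00000005469, chr8:83972978-83996445, plus strand) had 16.1 and 26.9 CPM after forskolin, 33.3 and 23.2 CPM after cAMP, and 4.01 CPM in the control. Every treated library lay above the control, and the forskolin and cAMP values overlapped. The mean was 21.5 ± 7.61 CPM for forskolin and 28.3 ± 7.12 CPM for cAMP (SD, n = 2 each). The log2 change was 2.12 ± 0.58 (SE) for forskolin, with an adjusted p of 0.000872 by limma, and 2.52 ± 0.58 for cAMP, with an adjusted p of 9.28e-05. After median-of-ratios scaling it was 0.29 and 0.70, and neither passed. As deposited, the forskolin call of Prkaca was lost without forskolin replicate 2, with an adjusted p of 0.0589 by limma, and held without forskolin replicate 1, at 0.0128. A processed pseudogene, Prkaca-ps1, was listed at 0.681 CPM or less in every library, and how reads shared with it were divided is not given in the sources used here.

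Prkacb (ENSMUSG00000005034, chr3:146729574-146812990, minus strand) had 125 and 70.3 CPM after forskolin, 75.4 and 75.2 CPM after cAMP, and 26.8 CPM in the control. The mean was 97.5 ± 38.5 CPM for forskolin and 75.3 ± 0.170 CPM for cAMP (SD, n = 2 each), so the forskolin libraries differed far more from each other than the cAMP libraries did. The log2 change was 1.77 ± 0.58 for forskolin, with an adjusted p of 0.00572 by limma, and 1.46 ± 0.58 for cAMP, with an adjusted p of 0.0222. After median-of-ratios scaling the sign turned, to -0.26 ± 0.41 for forskolin and -0.55 ± 0.41 for cAMP, and neither passed. Without forskolin replicate 1 neither call of Prkacb held, with an adjusted p by limma of 0.174 for forskolin and 0.0786 for cAMP, and without forskolin replicate 2 the cAMP call was lost as well, at 0.0717. The high value of forskolin replicate 1 went with those of several transcripts, most of all Prkacb-004. It was listed at 41.9 CPM in that library, against 3.58 CPM in the other forskolin library, 5.32 and 7.02 CPM after cAMP and 4.60 CPM in the control. Prkacb-003 (22.0 against 6.33 CPM) and Prkacb-001 (17.2 against 8.77 CPM) were also higher in forskolin replicate 1 than in replicate 2. Prkacb-003 and Prkacb-004 stood in a ratio of 2.13 in both cAMP replicate 2 and the control, so their values may not be separate measurements. Prkacb-002 was steadier, at 43.6 and 43.5 CPM after forskolin, 54.6 and 42.3 CPM after cAMP and 9.54 CPM in the control.

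Regulatory subunits set how much cAMP is needed to free the catalytic ones. Prkar1a (ENSMUSG00000020612, chr11:109649405-109669656, plus strand), which encodes the type I subunit RIα, was the highest of the regulatory genes per transcript length in every library. It had 115 and 80.5 CPM after forskolin, 108 and 67.5 CPM after cAMP, and 16.7 CPM in the control. All treated libraries lay above the control, and the values of the treated groups overlapped. For Prkar1a the log2 change was 2.46 ± 0.58 for forskolin, with an adjusted p of 0.000164 by limma, and 2.28 ± 0.58 for cAMP, with an adjusted p of 0.000431. After median-of-ratios scaling it was 0.45 and 0.29, and neither passed.

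The leading Prkar1a transcript was not the same in the treated and control libraries, and shares within a gene do not depend on how libraries are scaled. Prkar1a-001, which starts at base 109650921 inside the window with the full CRE, was listed at 98.9 and 65.8 CPM after forskolin, 98.9 and 60.0 CPM after cAMP and 4.12 CPM in the control. Prkar1a-002, which starts upstream at base 109649405, was listed at 15.3 and 7.49 CPM after forskolin, 5.61 and 0.854 CPM after cAMP and 11.5 CPM in the control. Prkar1a-001 thus made up 85.9% and 81.7% of the gene's CPM after forskolin, 91.7% and 88.8% after cAMP and 24.6% in the control. In each treated library it was the leading transcript, and in the control Prkar1a-002 led with 68.6%. With 4 libraries against 1, an exact permutation test cannot give a one-sided p below 0.2, so this difference was not tested. In the GENCODE M21 models the transcripts share 3206 bases and have 153 bases (Prkar1a-001) and 307 bases (Prkar1a-002) of their own, and carry the same coding sequence. The division of reads between them therefore rests on their own bases and on how the reads were assigned, which is not given in the sources used here. A different make-up in the control was not particular to Prkar1a. Akap13-001 made up 43.8% and 43.5% of its gene after forskolin, 44.0% and 40.9% after cAMP and 11.8% in the control. Prkacb-002 led its gene in each treated library, whereas Prkacb-003 (36.5%) and Prkacb-002 (35.6%) stood close together in the control.

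**Figure D2:**
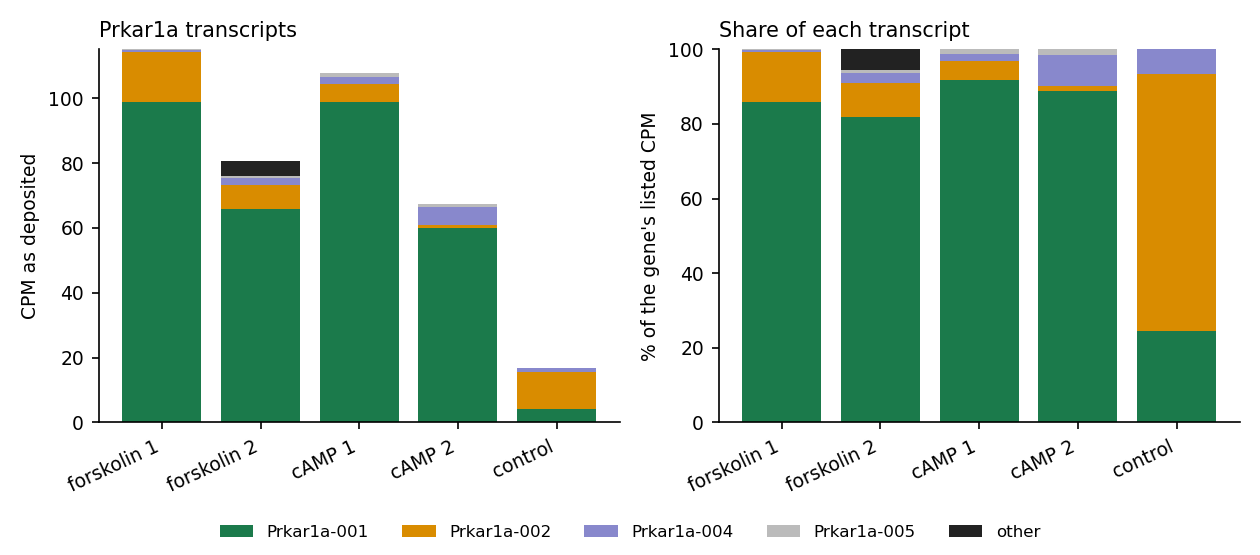
Left, CPM as deposited of the Prkar1a transcripts in each library, stacked, and right, the percent of the gene's CPM that each makes up, where "other" is a transcript below 1 CPM in all libraries but forskolin 2. Prkar1a-001 holds 81.7% to 91.7% in the forskolin and cAMP libraries (n = 2 each) and 24.6% in the control (n = 1).

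Prkar1b, which encodes the type I subunit RIβ and is known mainly from brain, was at the edge of detection. It was listed at 0.239 CPM in forskolin replicate 2, about 12 reads, and at under 1 read in the other forskolin library, both cAMP libraries and the control. It did not reach 1 CPM anywhere and was not tested, and no fold is given.

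Prkar2a (ENSMUSG00000032601, chr9:108689314-108750436, plus strand) encodes the type II subunit RIIα, the form that most A-kinase anchors bind. It had 27.6 and 28.4 CPM after forskolin, 30.1 and 45.0 CPM after cAMP, and 4.45 CPM in the control. Both forskolin libraries lay just below the lower cAMP library, and all 4 lay above the control. By limma, Prkar2a changed on the log2 scale by 2.41 ± 0.57 for forskolin, with an adjusted p of 0.000173 by limma, and 2.79 ± 0.57 for cAMP, with an adjusted p of 1.61e-05. After median-of-ratios scaling it was 0.55 ± 0.44 and 0.95 ± 0.44, and neither passed, with adjusted p of 0.369 and 0.123 by limma.

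Prkar2b (ENSMUSG00000002997, chr12:31958476-32061296, minus strand) encodes RIIβ, best known from fat and brain, and had the widest ratio to the control of the 9 tested genes. It had 2.02 and 3.35 CPM after forskolin, 7.20 and 6.58 CPM after cAMP, and 0.0405 CPM in the control, about 2 reads. The 3 groups did not overlap. Over both libraries the estimated reads were 268 after forskolin and 597 after cAMP. The ratio to the control was 66.7 for forskolin, with a 95% counting interval of 18.3 to 553, and 172 for cAMP, with an interval of 47.3 to 1421. After median-of-ratios scaling the ratio was 15.9 (4.36 to 132) for forskolin and 39.1 (10.8 to 324) for cAMP. These intervals cover counting error only and not the variation between animals. Prkar2b passed the filter on low values only through the treated libraries, the groups in which it was high.

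The log2 change of Prkar2b on the log2(CPM + 1) scale, which shrinks changes of genes near or below 1 CPM, was 1.80 ± 0.63 for forskolin and 2.92 ± 0.63 for cAMP, with adjusted p of 0.00873 and 3.35e-05 by limma. After median-of-ratios scaling it was 1.39 ± 0.52 for forskolin, with an adjusted p of 0.0592, and 2.44 ± 0.52 for cAMP, with an adjusted p of 0.00215 by limma. The cAMP call held with each treated library left out on that scale, with adjusted p between 0.000337 and 0.0312 by limma. The forskolin call of Prkar2b as deposited did not hold without forskolin replicate 2, where the adjusted p was 0.105 by limma. The reads were divided differently among the 3 Prkar2b transcripts in each library, so the gene sum is the value to read: Prkar2b-001 held 1.79% and 37.1% of it after forskolin, 6.39% and 77.6% after cAMP and 2.43% in the control.

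The sum of the sebaceous gland markers, like Prkar2b, was lowest in the control, higher after forskolin and highest after cAMP. Of the 10 markers, 8 had this order in every library as deposited and 7 after median-of-ratios scaling, and Scd3 and Mc5r did not have it as deposited. Of 6 melanocyte markers, 3 had it as deposited and 0 after scaling. The share of all genes with this order was not counted. The summed level of the 10 sebaceous markers listed was 1538 and 2271 CPM after forskolin, 5140 and 5663 CPM after cAMP, and 186 CPM in the control. None of the 10 was under the 3-read floor in a treated library, and 2 were in the control. The 6 adipocyte markers listed summed to 4.16 and 4.43 CPM after forskolin, 8.61 and 8.36 CPM after cAMP, and 4.79 CPM in the control. Of these, 1 was under the 3-read floor in each forskolin library, 1 and 2 in the cAMP libraries and 4 in the control. Cidec, a lipid droplet protein, had 1.60 and 2.46 CPM after forskolin, 6.17 and 2.49 CPM after cAMP and under 1 read in the control, and was the 1 of the 6 with the order of Prkar2b. Adipoq, which encodes the fat hormone adiponectin, had 0.536 and 0.236 CPM after forskolin, 0.116 and 0.907 CPM after cAMP and 0.405 CPM in the control. Of the 2 adipocyte markers with enough signal to test, 1 was higher after each treatment as deposited by limma. After scaling, 1 was higher and 1 lower after cAMP, and none was higher and 1 lower after forskolin. The part of either cell type in the Prkar2b result was not tested.

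**Figure D3:**
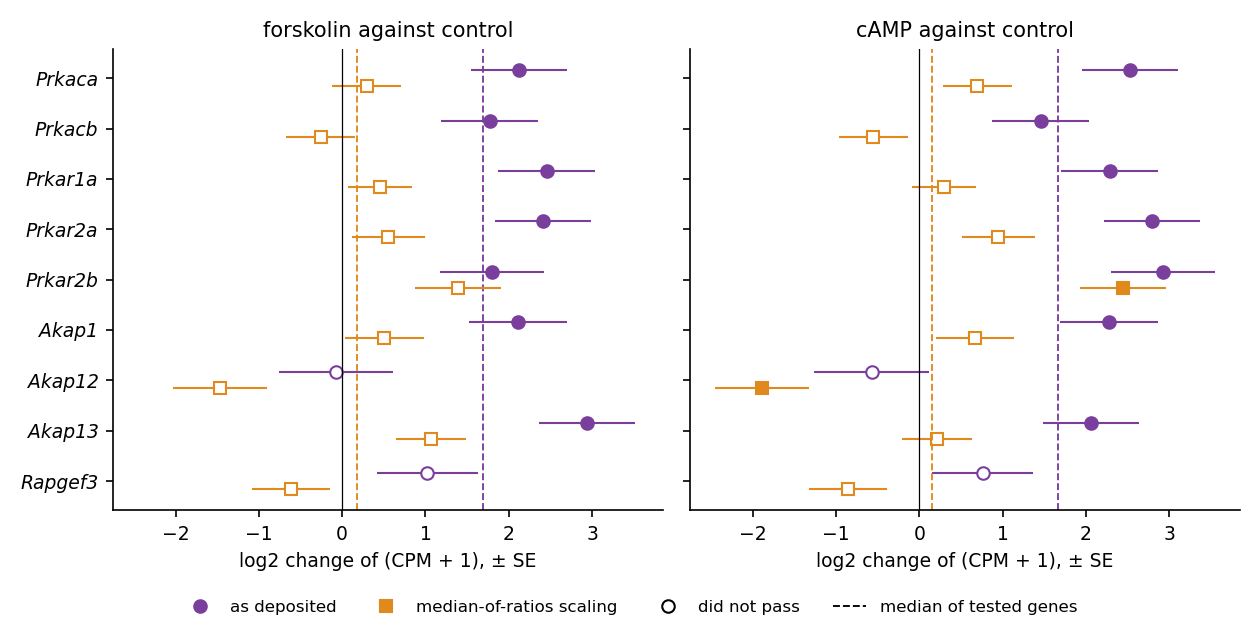
Log2 change of CPM + 1 with its standard error for the 9 tested genes, forskolin against control on the left and cAMP against control on the right, as deposited (circles) and after median-of-ratios scaling (squares). Filled symbols passed at an adjusted p of 0.05 and dashed lines mark the median of all tested genes, and after scaling Prkar2b (2.44) and Akap12 (-1.89) after cAMP are filled.

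The anchors place PKA at different sites. Akap1 (ENSMUSG00000018428, chr11:88830792-88864586, minus strand) encodes the anchor of the outer mitochondrial membrane. It had 7.29 and 15.4 CPM after forskolin, 17.3 and 8.37 CPM after cAMP, and 1.70 CPM in the control. The 2 libraries of each treated group were spread more widely than the gap between the treated groups, and all 4 lay above the control. For Akap1 the log2 change was 2.11 ± 0.59 for forskolin and 2.28 ± 0.59 for cAMP, with adjusted p of 0.00116 and 0.00049 by limma. After scaling it was 0.51 and 0.67, and neither passed. Without forskolin replicate 2 the forskolin call of Akap1 was lost as deposited, with an adjusted p of 0.0801 by limma. An overlapping antisense gene, 4930556N13Rik, was at 0.213 CPM or less in every library.

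Akap13 (ENSMUSG00000066406, chr7:75455534-75754609, plus strand) encodes an anchor that also activates the GTPase RhoA. It had 34.5 and 54.1 CPM after forskolin, 23.0 and 23.3 CPM after cAMP, and 4.78 CPM in the control. As deposited the 3 groups did not overlap, and forskolin lay highest. The log2 change of Akap13 was 2.94 ± 0.57 for forskolin, with an adjusted p of 6.41e-06 by limma, and 2.06 ± 0.57 for cAMP, with an adjusted p of 0.00119. After median-of-ratios scaling it was 1.06 ± 0.42 for forskolin, with an adjusted p of 0.0736 by limma. For cAMP it was 0.21 ± 0.42 on that scale, with an adjusted p of 0.748 by limma. The scaled cAMP libraries (14.1 and 20.9 CPM) lay on both sides of the control (14.7 CPM). Akap13-001 and the other Akap13 transcript with at least 1 CPM in 2 libraries were listed in a ratio of 0.810 to 0.813 in all 5 libraries, so their values are not separate measurements.

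Akap12 (ENSMUSG00000038587, chr10:4266329-4359468, plus strand) encodes gravin, a scaffold that binds PKA and protein kinase C at the cell membrane. It had 1.81 and 0.906 CPM after forskolin, 0.793 and 0.497 CPM after cAMP, and 1.44 CPM in the control. As deposited the control lay between the 2 forskolin libraries and above both cAMP libraries. The log2 change of Akap12 was -0.07 ± 0.69 for forskolin and -0.57 ± 0.69 for cAMP, and neither passed. After median-of-ratios scaling the levels were 1.28 and 0.691 CPM after forskolin, 0.485 and 0.446 CPM after cAMP, and 4.42 CPM in the control, so that every treated library lay below the control. On that scale the log2 change was -1.46 ± 0.56 for forskolin, with an adjusted p of 0.0667 by limma, and -1.89 ± 0.56 for cAMP, with an adjusted p of 0.0206. The cAMP call of Akap12 did not hold without cAMP replicate 1 (adjusted p 0.0557 by limma) or without cAMP replicate 2 (0.0598), and without forskolin replicate 1 the gene no longer passed the filter on low values. Summed dermal fibroblast markers, 8 genes all listed, were 107 and 276 CPM after forskolin, 181 and 314 CPM after cAMP and 158 CPM in the control as deposited. After scaling they were 75.6 and 211 CPM after forskolin, 110 and 281 CPM after cAMP and 484 CPM in the control, so their sum, like Akap12, was highest in the control on that scale. Of the 8 markers, 4 were highest in the control after scaling, and 1 was lowest there. This was not particular to fibroblasts. The scaled sums of the differentiated keratinocyte, skeletal muscle, adipocyte and endothelial markers were highest in the control as well. By single markers, 7 of 8 for differentiated keratinocytes, 8 of 8 for skeletal muscle and 5 of 7 for basal keratinocytes were highest there. For adipocytes it was 3 of 6 and for endothelial cells 2 of 7. Of these, 4 adipocyte and 5 endothelial markers were under the 3-read floor in the control. The share of all genes highest in the control after scaling was not counted. The part of any cell type in the Akap12 result was not tested.

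Rapgef3 (ENSMUSG00000022469, chr15:97744770-97767846, minus strand) had 6.88 and 4.19 CPM after forskolin, 5.92 and 3.12 CPM after cAMP, and 2.15 CPM in the control. All treated libraries lay above the control, and the treated groups overlapped. The log2 change of Rapgef3 was 1.02 ± 0.61 for forskolin and 0.76 ± 0.61 for cAMP, with adjusted p of 0.12 and 0.247 by limma. After scaling the sign turned, to -0.62 ± 0.47 and -0.86 ± 0.47, and neither passed. Much of the Rapgef3 signal lay in transcripts that do not code for protein. Coding transcripts made up 35.5% and 49.6% of its CPM after forskolin, 70.2% and 39.5% after cAMP, and held under 1 read in the control. With coding transcripts alone, Rapgef3 passed as deposited, at a log2 change of 1.70 for forskolin and 1.76 for cAMP. The adjusted p was 0.0451 and 0.0395 by limma. In that fit the median log2 change of all 11895 tested genes was 1.75 and 1.71, and 7425 and 7212 were called higher. Coding transcripts alone were not fitted after scaling.

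Levels per transcript length allow the genes to be set side by side. In CPM per kilobase, Prkar1a stood at 35.0 and 40.5 after forskolin, 36.6 and 26.8 after cAMP and 5.67 in the control. Prkacb stood at 30.7 and 27.5 after forskolin, 19.4 and 18.6 after cAMP and 9.33 in the control. Prkar1a was thus the highest of the subunits per length in each treated library, whereas Prkacb led in the control. Short non-coding transcripts weigh heavily in these sums. In forskolin replicate 2, a non-coding Prkar1a transcript of 306 bases was listed at 4.57 CPM. With coding transcripts alone, the summed regulatory level of that library was 31.4 in place of 51.4 CPM per kilobase. Prkaca had 7.08 and 11.8 CPM per kilobase after forskolin, 14.6 and 10.2 after cAMP and 1.76 in the control. Prkar2b was the lowest of the tested subunits per length in every library, at 0.797 and 1.62 after forskolin, 3.14 and 2.07 after cAMP and 0.0130 in the control. Akap12 was at 0.293 CPM per kilobase or less in every library. Akap13 was left out of this ranking because a length was at hand for 1 of its 7 transcripts.

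The balance of subunits within a library does not depend on scaling between libraries. The summed regulatory level over the summed catalytic level, per kilobase, was 1.22 and 1.31 after forskolin, 1.38 and 1.57 after cAMP, and 0.762 in the control. Every treated library had more regulatory than catalytic transcript, and the control had less. The same held in plain CPM, where regulatory genes made up 50.7% (exact 95% interval 49.8 to 51.5) and 53.7% (52.7 to 54.6) of subunit reads after forskolin, 57.2% (56.3 to 58.0) and 54.7% (53.6 to 55.9) after cAMP, and 40.8% (38.9 to 42.7) in the control. The intervals of these and the following shares cover counting error only, and not the variation between libraries. With coding transcripts alone, the per-kilobase ratio was 1.07 and 0.891 after forskolin, 1.28 and 1.28 after cAMP, and 0.761 in the control, so each treated library again lay above the control but forskolin replicate 2 fell below 1. The forskolin and cAMP ratios did not overlap per kilobase, with cAMP higher, and 2 libraries against 2 cannot give an exact permutation p below 0.333.

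Prkaca made up 18.7% and 30.1% of the catalytic level per kilobase after forskolin, 43.0% and 35.5% after cAMP, and 15.9% in the control. In plain CPM the share was 11.4% (10.7 to 12.2) and 27.7% (26.4 to 28.9) after forskolin, 30.6% (29.4 to 31.9) and 23.6% (22.2 to 25.1) after cAMP, and 13.0% (11.4 to 14.8) in the control, so forskolin replicate 1 was listed below the control. That difference was not tested. On the regulatory side, Prkar2b made up 1.72% and 3.15% of the level per kilobase after forskolin, 6.68% and 4.60% after cAMP, and 0.153% in the control. Prkar1a held 75.7% and 78.8% after forskolin, 77.8% and 59.4% after cAMP, and 67.1% in the control, so the treated libraries lay on both sides of the control.

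**Figure D4:**
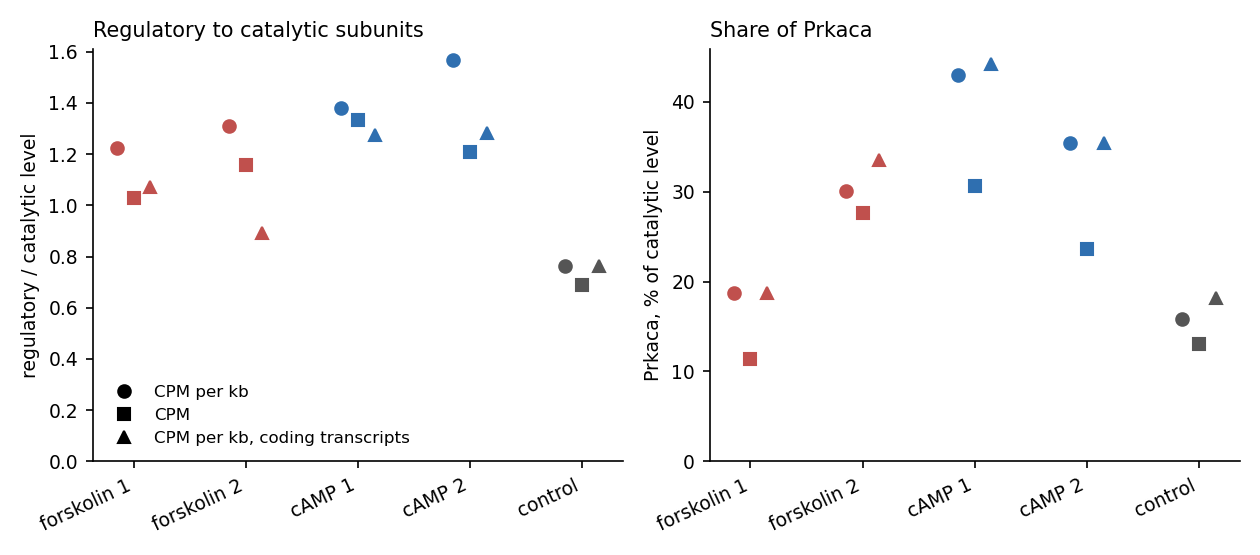
Left, summed regulatory over summed catalytic subunit level within each library, and right, Prkaca as a percent of the catalytic level, each on 3 scales (circles CPM per kilobase, squares CPM, triangles coding transcripts per kilobase). The regulatory to catalytic ratio is above the control (0.762 per kilobase) in all forskolin and cAMP libraries on each scale, whereas the Prkaca share of forskolin 1 lies below the control in plain CPM.

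With forskolin set directly against cAMP, none of the 9 tested genes passed in either direction by limma, where 0.378% of all tested genes did, and 1 of the 9, Prkar2b, had an unadjusted p under 0.05. The doses were 10 µM and 1.325 mM, so the treatments were not matched in amount. Prkar2b was lower after forskolin, at a mean of 2.68 ± 0.940 CPM, against 6.89 ± 0.436 CPM after cAMP (SD, n = 2 each). The log2 difference, forskolin minus cAMP, was -1.12 with a 95% interval of -2.13 to -0.12 and an adjusted p of 0.648 by limma. Akap13 averaged 44.3 ± 13.8 CPM after forskolin and 23.1 ± 0.178 CPM after cAMP, a log2 difference of 0.87 (-0.05 to 1.79) with an adjusted p of 0.763 by limma. For Prkar2b and Akap13 the libraries of the treatments did not overlap, but the difference did not pass over all genes. As deposited, the same held for Prkar2a (27.6 and 28.4 CPM after forskolin, 30.1 and 45.0 CPM after cAMP). It also held for Akap12 (1.81 and 0.906 CPM, against 0.793 and 0.497 CPM). After median-of-ratios scaling Prkar2a did overlap, at 19.5 and 21.7 CPM after forskolin and 18.4 and 40.3 CPM after cAMP. The share of all genes without overlap was not counted, so no result about these genes is read from the lack of overlap. With 2 libraries against 2, an exact permutation p cannot fall below 0.333.

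The remaining intervals bound what could have been missed. They ran from -1.32 to 0.52 for Prkaca, -0.62 to 1.25 for Prkacb, -0.76 to 1.11 for Prkar1a and -1.30 to 0.54 for Prkar2a. For the anchors and the Epac gene they ran from -1.11 to 0.77 for Akap1, -0.60 to 1.60 for Akap12 and -0.71 to 1.23 for Rapgef3. Each contains 0 and differences in both directions. After median-of-ratios scaling none of the 9 passed either by limma, where 0.546% of all genes did and Prkar2b and Akap13 had an unadjusted p under 0.05, and the difference was -1.06 for Prkar2b and 0.85 for Akap13.

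**Figure D5:**
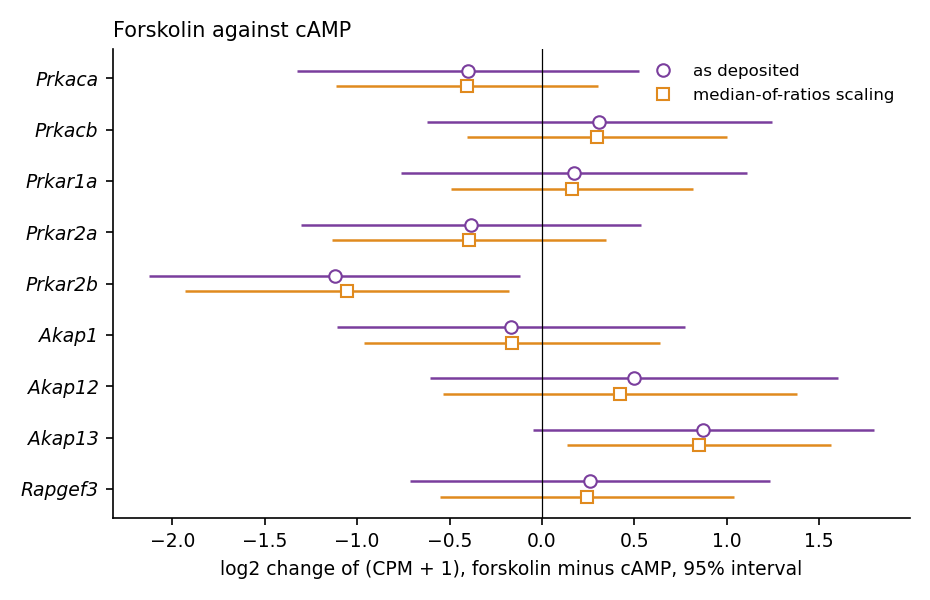
Log2 difference of CPM + 1, forskolin minus cAMP, with its 95% interval for the 9 tested genes (n = 2 libraries each). Prkar2b (-1.12) and Akap13 (0.87) lie furthest from 0, and no gene passed after adjustment.

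Around these genes, 61 further genes of the pathway were grouped by role, of which 51 were in the table and 41 had enough signal to test. As deposited, 28 were higher and none lower after forskolin, and 23 were higher and none lower after cAMP by limma (none was lower at an unadjusted p under 0.05 either), with median log2 changes of 1.62 and 1.39. Of all tested genes, 66.3% were higher after forskolin and 65.1% after cAMP, with medians of 1.69 and 1.66. After median-of-ratios scaling 3 were higher and 4 lower after forskolin, and 3 higher and 5 lower after cAMP, where 15.1% of all genes were higher and 6.73% lower after forskolin, and 15.7% higher and 7.03% lower after cAMP. Leaving out forskolin replicate 1 brought the 28 called after forskolin as deposited to 11. After scaling, the 7 called after forskolin were 3 without forskolin replicate 2, and the 8 called after cAMP were 3 without cAMP replicate 2. In each of these fits without a library, fewer of all tested genes were called in the same comparison as well. Between forskolin and cAMP none of the 41 passed on either scale by limma, and 0 as deposited and 3 after scaling had an unadjusted p under 0.05.

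The PKA inhibitor genes, whose products block the free catalytic subunits, were all tested. Pkib had 19.0 and 7.91 CPM after forskolin, 7.20 and 5.06 CPM after cAMP and 5.97 CPM in the control. As deposited the control lay within the range of the cAMP libraries. After median-of-ratios scaling Pkib was lower after cAMP, with a log2 change of -1.82 ± 0.46 and an adjusted p of 0.00756 by limma. Pkia passed as deposited after forskolin (log2 change 1.51, adjusted p 0.033 by limma) and Pkig after cAMP (1.39, adjusted p 0.0347), and neither passed after scaling.

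Of the other anchors 16 of 25 were tested, and 12 were higher after forskolin and 8 after cAMP as deposited, beside 66.3% and 65.1% of all tested genes. Akap8l, a nuclear protein related to the anchor Akap8, had 35.3 and 43.6 CPM after forskolin, 44.1 and 28.6 CPM after cAMP and 2.39 CPM in the control. Its treated libraries all lay far above the control. As deposited the log2 change was 3.57 for forskolin and 3.43 for cAMP. It passed after scaling too, at 1.84 ± 0.39 and 1.71 ± 0.39, with adjusted p of 0.00259 and 0.00374 by limma. Akap9, the anchor of the centrosome and Golgi, had 35.5 and 48.8 CPM after forskolin, 26.1 and 23.7 CPM after cAMP and 4.74 CPM in the control, and passed as deposited only. Akap8 had 75.5 and 51.8 CPM after forskolin, 56.7 and 43.9 CPM after cAMP and 10.2 CPM in the control, and also passed as deposited only. Nbea and Akap17b were lower after both treatments once scaled, and Synm after forskolin.

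Among the 9 genes for Epac2 and the Rap proteins, 8 were tested, and 6 were higher after forskolin and 5 after cAMP as deposited, again beside 66.3% and 65.1% of all tested genes. Rap2b had 17.1 and 18.1 CPM after forskolin, 19.7 and 17.2 CPM after cAMP and 1.34 CPM in the control. Rap2a had 10.5 and 9.65 CPM after forskolin, 9.50 and 11.6 CPM after cAMP and 0.709 CPM in the control. For both small GTPases the treated libraries lay close together and above the control. Both passed after scaling, Rap2b at 1.45 for forskolin and 1.52 for cAMP with adjusted p of 0.0162 and 0.0113 by limma, and Rap2a at 1.40 and 1.47 with adjusted p of 0.0318 and 0.0236. Rap1b had 47.8 and 30.9 CPM after forskolin, 31.8 and 27.7 CPM after cAMP and 17.2 CPM in the control. After scaling Rap1b was lower after cAMP, with a log2 change of -1.23 ± 0.39 and an adjusted p of 0.0296 by limma. Sipa1, which inactivates Rap, passed as deposited after both treatments and on the scaled values after neither.

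Of 10 other cAMP-binding proteins 1 was tested, Popdc3, with 3.72 and 1.67 CPM after forskolin, 2.33 and 0.614 CPM after cAMP and 4.43 CPM in the control. Each treated library lay below the control. As deposited the log2 change of Popdc3 was -0.61 for forskolin and -1.23 for cAMP, and neither passed. After scaling it was -2.35 and -2.92, with adjusted p of 0.00385 and 0.000569 by limma. Genes for the upkeep of the kinase (chaperones, Pdpk1 and the ligase Pja2) rose in 3 of 5 cases after forskolin and 4 of 5 after cAMP as deposited. The phosphatase genes that oppose it rose in 6 of the 8 tested after forskolin and 5 after cAMP. Both lists stand beside the same 66.3% and 65.1% of all tested genes. None of either list passed after scaling by limma, where 1 phosphatase gene after forskolin was lower at an unadjusted p under 0.05, and after cAMP 1 was higher and 1 lower. Ppp1ca, a catalytic subunit of phosphatase 1, had the highest log2 change of the 8 in both comparisons as deposited, with 86.4 and 95.5 CPM after forskolin, 145 and 81.2 CPM after cAMP and 14.8 CPM in the control.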

How the data were processed

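RNA-seq libraries of mouse epidermis were analysed from the table of transcript values that the authors deposited. Its unit was read from the deposited values as CPM. The submitters' processing notes name Partek, STAR and bcl2fastq 2.17 with no roles. The settings, genome build and annotation are not given in the sources used here. Of the 59869 transcripts listed, 98.3% were in GENCODE M21 on GRCm38, and the coordinates matched for 90.8% of these, once the deposited end was corrected by 1 base. In place of 0 the table holds a small offset, and the depths above assume that it stood for 0.0001 read. Whole reads were not recovered for the full table, so no count model was run.

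Transcripts were summed per Ensembl gene, and 3 rows without a gene identifier (at most 0.0679% of a library) were left out. The test planned for a table of genes was run on these sums. Testing was limited to genes that reached 1 CPM in 2 or more libraries, on log2(CPM + 1) with limma 3.58.1 in R 4.3.3, with an intensity trend, all 5 libraries and 3 groups in one fit and 2-sided Benjamini-Hochberg adjusted p-values. The filter could be passed through treated libraries alone, but not through the single control. Genes found only in the control were therefore not tested, which bears on the counts of lower genes. The log2(CPM + 1) scale understates changes of low genes. The fit had 2 residual and 360 prior degrees of freedom, so a gene's spread came mostly from the trend over all genes. Median-of-ratios size factors came from 11935 genes above 0.05 CPM in every library and were 1.41 and 1.31 for forskolin, 1.64 and 1.12 for cAMP and 0.325 for the control. On that scale 13358 genes were tested, with 18.1 prior degrees of freedom. Levels per kilobase divide each transcript by its GENCODE M21 length. Exact 95% intervals of shares are Clopper-Pearson, and that of the Prkar2b ratio is the exact interval of a ratio of 2 read counts. The fit was tested on simulated data.

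The genes and lists were chosen with earlier results of these data known. Named are the 10 genes, their transcripts that reached 1 CPM in 2 or more libraries, and up to 3 genes of each pathway list with the smallest p over the comparisons. Pathway genes that passed after scaling and fall outside that rule (Rap1b, Nbea, Akap17b, Synm) and the markers Adipoq, Cidec, Scd3 and Mc5r were named after their values were seen. Alternatives changed the scaling, pseudocount, filter, libraries, block and transcripts used. Median-of-ratios scaling with a library left out or with the block was added after seeing the data. Replicate numbers are shared between forskolin and cAMP, but nothing in the labels says that they pair the libraries.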

Additional observations from a re-analysis of the deposited data

How the results depend on the processing

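With 1 control library, calls against it rest on that library, and depth limits Prkar1b and the control level of Prkar2b. The number of the 10 genes called against the control was 7 for each treatment. It was 0 for forskolin and 2 for cAMP after median-of-ratios scaling or after scaling to nuclear genes. Leaving out 1 treated library gave 4 (without forskolin replicate 2) to 7 for forskolin and 6 to 7 for cAMP. With median-of-ratios scaling and a library left out, a combination added after seeing the data, it was 0 to 1 for forskolin and 1 to 2 for cAMP. Of the other pathway genes, 28 were called for forskolin and 23 for cAMP. After median-of-ratios scaling these numbers were 7 and 8, after scaling to nuclear genes 6 and 8, and for forskolin without a filter 17. Leaving out 1 library gave 11 (without forskolin replicate 1) to 30 for forskolin and 18 to 28 for cAMP, and with scaling 3 to 7 and 3 to 8. Between forskolin and cAMP 0 were called under every alternative run, except 1 pathway gene with median-of-ratios scaling and without forskolin replicate 1. The number of all genes called against the control moved with the settings too. For forskolin it was 9177 of 13764 as deposited, 2922 of 13358 after median-of-ratios scaling and 6237 of 21667 without a filter. For cAMP these numbers were 9025 of 13764, 3040 of 13358 and 6326 of 21667. After scaling to nuclear genes 2965 of 13408 were called for forskolin and 3011 of 13408 for cAMP. As deposited, leaving out either forskolin library lowered the number for forskolin, and leaving out either cAMP library raised it. The cause was not tested.

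Whether the numbers of forskolin and cAMP libraries mark pairs could not be decided. The deviations of same-numbered libraries had a correlation of -0.045, but over 2 pairs, which are too few to tell. With the replicate block, 7 of the 10 genes were called for forskolin and 7 for cAMP, and 30 and 26 pathway genes. With the block and median-of-ratios scaling these numbers were 0 and 2, and 5 and 6. Of all 13764 tested genes, 9481 were called for forskolin and 9241 for cAMP with the block. With the block and scaling it was 2515 and 2571 of 13358.

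The sign turned under some alternatives for 5 genes, none of which passed with the turned sign. With scaling to nuclear genes, the log2 change of Prkacb was -0.17 for forskolin and -0.53 for cAMP, and of Rapgef3 -0.55 and -0.84, close to the median-of-ratios values of -0.26 and -0.55 for Prkacb and -0.62 and -0.86 for Rapgef3. For Akap12 after forskolin it was 0.13 with the replicate block and -0.074 to 0.21 with 1 library left out (0.21 without forskolin replicate 2). Between forskolin and cAMP, leaving out 1 library gave -0.098 to 0.72 for Prkacb, -0.16 to 0.51 for Prkar1a, -0.66 to 0.33 for Akap1 and -0.11 to 0.63 for Rapgef3. Coding transcripts alone gave 0.042 for Akap1 and -0.059 for Rapgef3. Without the filter on low values the calls of Prkar2b and Akap1 for forskolin and of Prkacb and Akap1 for cAMP were lost, with adjusted p between 0.0504 and 0.0644 by limma, and a pseudocount of 5 ended the forskolin call of Prkar2b (0.109).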
